A study of Mus musculus with 3 samples.

Results

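The genes described here are the orphan and adhesion G protein-coupled receptors of plasmacytoid dendritic cells, the dendritic cells that secrete large amounts of type I interferon. They were chosen by symbol alone, as every named gene of the array whose symbol starts with Gpr and a digit or with Adgr, with the macrophage marker gene Adgre1 left out. This gave 91 of 19505 genes, 69 with a Gpr symbol and 22 with an Adgr symbol, each measured by 1 probe set. All cells were wild-type, derived from marrow of BALB/c males 4 to 5 weeks old. They differentiated for 6 to 9 days in medium with 100 ng/mL of Flt3 ligand, and CpG oligodeoxynucleotides then brought them to maturity before cell sorting. In the astragaloside IV group and in the oxymatrine group the mature cells received that plant compound for 12 h and then the chemokine CCL21 for 1 h. The labels do not say whether the cells of the control group received a vehicle or CCL21, and they give no doses, so a difference from control cannot be told apart from an effect of the CCL21 step. Each group was measured on 1 array, so no value has a replicate and no difference was tested.

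G protein-coupled receptors are multipass membrane proteins that turn an outside signal into the activity of G proteins, arrestins and second messengers such as cyclic AMP. The Gpr symbols were given to receptors found by sequence before a ligand was known. Several of these have since been matched to protons, oxidised cholesterol, lysophospholipids or fatty acids, while others are still orphans, and a few are proteins of internal membranes. Adhesion receptors carry long outer regions that bind matrix or neighbouring cells, and most can cleave themselves at a conserved site. In dendritic cells, chemoattractant receptors of the wider family direct migration, which was the question of the study.

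Of the 91 genes, 38 (41.8%) were above background, against 10671 of all 19505 genes (54.7%). Background was set at a log2 level of 5.28, the 95th percentile of the mean levels of 1412 olfactory and vomeronasal receptor genes (symbols Olfr and Vmn), which are normally silent in blood cells. Of the Gpr genes 32 of 69 (46.4%) and of the adhesion genes 6 of 22 (27.3%) reached it. The threshold fell among close values: the genes nearest above it were Gpr63, with a mean level of 5.33, and Gpr75, with 5.36, and the nearest below were Gpr161, with 5.28, and Adgrg1, with 5.25. All levels are log2 values made by RMA (robust multi-array average), and a level is compared only within a gene, since probe sets differ in brightness for the same amount of RNA. Bulk RNA of a sorted population also cannot tell fewer cells that express a gene from less of its RNA per cell.

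**Figure D1:**
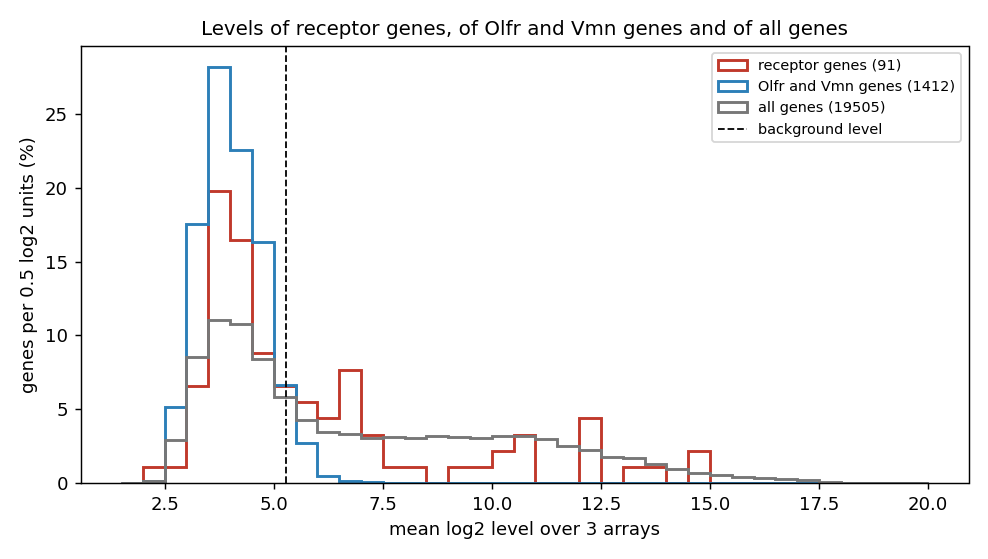
Share of genes, in percent per bin of 0.5 log2 units, by mean log2 level over the 3 arrays, for the 91 receptor genes, the 1412 Olfr and Vmn genes and all 19505 genes. The receptor genes form a dim group that overlaps the Olfr and Vmn genes and a spread of genes above the background level of 5.28 (dashed line), which holds 38 of them.

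The shares of genes with little or no spread over the 3 arrays were close to those of all genes. The SD of the difference from control with astragaloside IV was 0.25 over the 38 genes and 0.20 over all genes above background. For oxymatrine it was 0.24 and 0.23. The value of 0.25 includes Adgrg3, which was -1.06 from control, while every other gene of the 38 lay within 0.42. The 38 genes were also dimmer, their median being 7.16 against 9.26 for all genes above background. These SDs therefore do not show a wider spread of the receptor genes as a group. Among the 38 genes above background, 17 (44.7%) had values within 0.1 of each other over the 3 arrays, and 5 (13.2%) had exactly the same value in each. Over all genes above background these shares were 41.0% and 13.6%. The median polish step of RMA can give exact ties, so an equal value is not a measured absence of any difference. Of the defining markers of the labelled cell type, 11 of 11 were above background, among them the lineage factor gene Tcf4 at 14.37 in the astragaloside IV, oxymatrine and control arrays alike. Of these 11, 5 were below control, 0 above it and 6 equal to it in the astragaloside IV array. In the oxymatrine array 7 were below, 2 above and 2 equal. Over all genes above background the shares below control were 40.8% and 46.0%, and counts this small cannot be set apart from them. The 2 above control with oxymatrine were Siglech, by 0.03, and Tlr9, by 0.003. Irf7, the interferon regulator, was at 14.95 with astragaloside IV, 14.84 with oxymatrine and 15.05 in control. The chemokine receptor gene Ccr9 was at 9.20, 9.15 and 9.46 in that order, and Ly6d at 6.59, 6.59 and 6.89. The part of the cell makeup in the receptor values was not tested. Markers of macrophages and monocytes (6 of 6) and of conventional dendritic cells (5 of 7) were above background as well. This held for 3 of 5 B cell markers, 2 of 4 endothelial markers, 1 of 6 T and NK cell markers and 1 of 5 neutrophil markers.

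**Figure D2:**
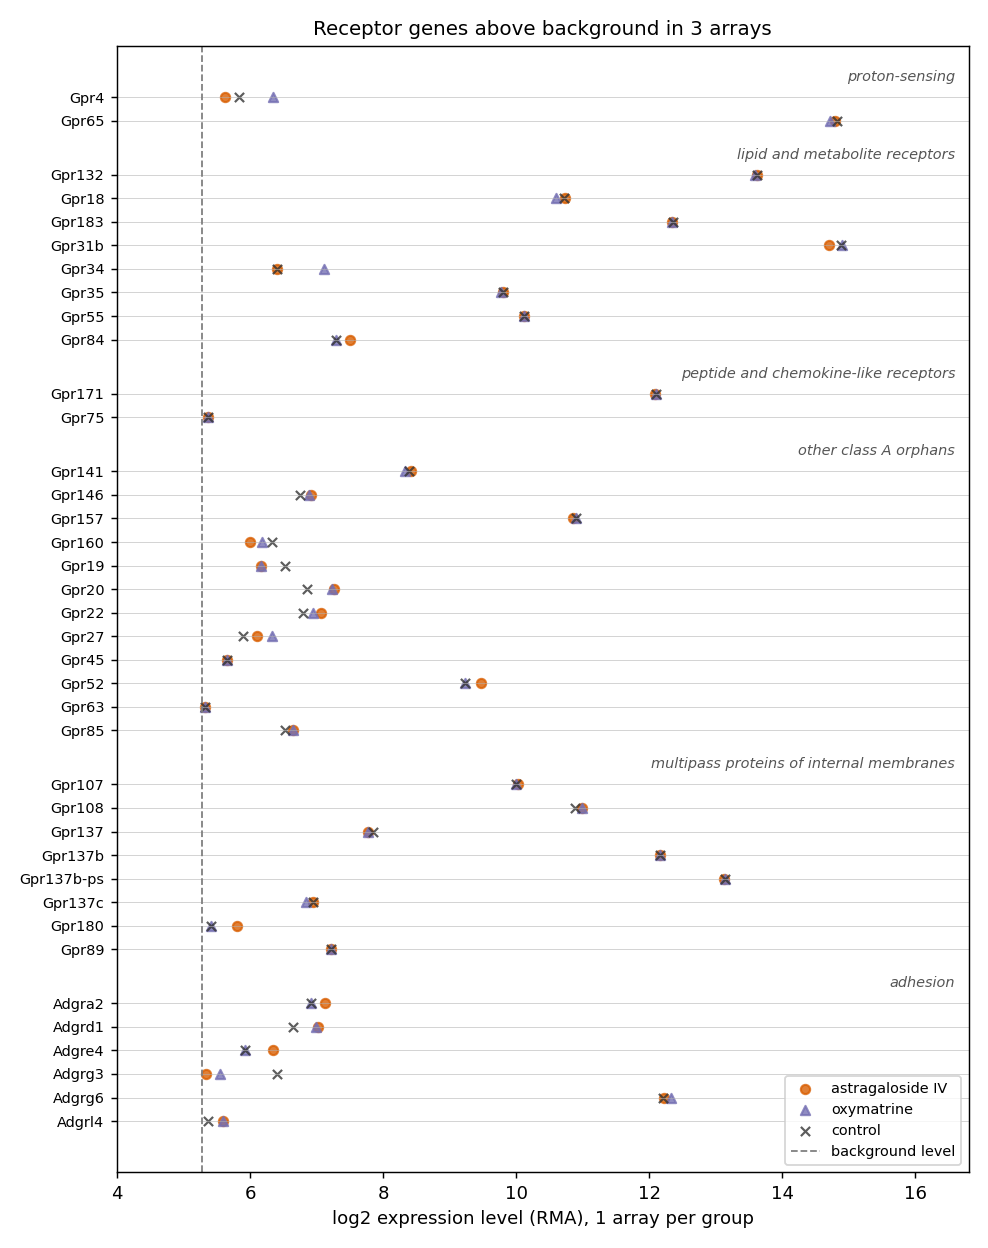
Log2 expression level (horizontal axis) of the 38 receptor genes above background in the astragaloside IV, oxymatrine and control arrays, grouped by role. For 17 of the 38 genes the 3 symbols lie within 0.1 of each other. Adgrg3, Gpr34 and Gpr4 are the rows where they lie furthest apart.

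Proton-sensing receptors detect a drop in outside pH through histidine residues. Gpr65, which signals through cyclic AMP in lymphoid and myeloid cells, was at 14.79 with astragaloside IV, 14.71 with oxymatrine and 14.83 in control. Its differences from control were -0.04 and -0.12, so both treated arrays lay slightly below the control array. Gpr4, a proton sensor best known from endothelial cells, was at 5.62 with astragaloside IV, 6.34 with oxymatrine and 5.83 in control. The oxymatrine array was the high one, by 0.51 over control, while the astragaloside IV array differed from control by -0.21. Between the treated arrays the difference was -0.72, a 1.64-fold lower value with astragaloside IV. The SD of that difference over genes of similar level was 0.25. Here and below this SD describes how far genes of like brightness lay apart in the same pair of arrays, and it is not a replicate error. Markers of endothelial cells were partly present, with Cdh5 and Tek below background in every array. Kdr was at 13.52 with astragaloside IV, 13.57 with oxymatrine and 13.43 in control, and Pecam1 at 10.69, 10.64 and 10.64 in the same order. Their part in the Gpr4 values was not tested.

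Receptors for lipids and small metabolites made up the largest set with a known role, and 8 of 12 were above background. Gpr183, the receptor for dihydroxylated cholesterol that positions B cells and dendritic cells in lymphoid tissue, was at 12.33 with astragaloside IV, 12.34 with oxymatrine and 12.36 in control. Gpr132, which responds to oxidised fatty acids, was at 13.62, 13.59 and 13.62 in the same order. Both genes were thus level across the arrays. Gpr35, a receptor activated by the tryptophan metabolite kynurenic acid, was at 9.80 with astragaloside IV, 9.77 with oxymatrine and 9.80 in control. Gpr55, a receptor for lysophosphatidylinositol, was at 10.12, 10.11 and 10.12. Gpr18, activated by N-arachidonoyl glycine, was at 10.74, 10.60 and 10.71. Of these, only Gpr18 was as much as 0.1 from control in either treated array, with -0.11 for oxymatrine.

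Gpr31b, reported in mouse intestinal phagocytes as a receptor for pyruvate and lactate, was at 14.71 with astragaloside IV, 14.91 with oxymatrine and 14.89 in control. The astragaloside IV array was the low one, at -0.18 from control, which is small in size but -2.25 times the SD of 0.08 among genes of that level. Gpr84, a receptor for medium-chain fatty acids on activated myeloid cells, was at 7.50 with astragaloside IV and at 7.30 in both other arrays. Gpr34, a receptor for lysophosphatidylserine, was at 6.40 with astragaloside IV, 7.10 with oxymatrine and 6.40 in control. The oxymatrine array alone was high, with a difference from control of 0.71 or 1.63-fold, which is 2.59 times the SD at that level. Gpr34 lies inside the gene Cask in the mouse assembly GRCm38.p6, and Cask did not share this pattern, at 8.63 with either compound and 8.98 in control. Gpr82, the next receptor gene inside Cask, was below background at 3.35 in each array. Gpr174, the other lysophosphatidylserine receptor measured, was below background at 4.50, 4.74 and 4.74. The remaining 3 dim genes of this set had mean levels from 3.52 upward.

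Of 10 receptors for peptides or chemokine-like ligands, 2 were above background. Gpr171, a receptor for a neuropeptide that is also carried by T cells, was at 12.08 with astragaloside IV and 12.10 in both other arrays. Gpr75 was at 5.36 in each array, close to the background level. The other 8 had mean levels between 2.94 and 4.40. All 3 receptors that raise cyclic AMP without a ligand (Gpr3, Gpr6 and Gpr12) were below background, with mean levels of 3.74 to 4.31, and so were both class C orphans measured.

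Among the other orphan receptors, 12 of 30 were above background. Gpr20 was at 7.25 with astragaloside IV, 7.24 with oxymatrine and 6.86 in control. Gpr19 went the other way, at 6.16 with either compound and 6.52 in control. Both treated arrays therefore lay on the same side of the single control array, which they share. Gpr27, a member of a receptor family conserved in brain, was at 6.10 with astragaloside IV, 6.32 with oxymatrine and 5.89 in control. Its relative Gpr85 was at 6.65, 6.65 and 6.52. Gpr160, a candidate receptor for the CART peptide, was at 6.00 with astragaloside IV, 6.18 with oxymatrine and 6.33 in control. None of these genes was as much as 1.5-fold from control.

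Gpr22 was at 7.07 with astragaloside IV, 6.95 with oxymatrine and 6.80 in control, and Gpr146, which acts in cholesterol handling in the liver, at 6.91, 6.89 and 6.75. Gpr22 lies inside Cog5, which was at 11.78 with astragaloside IV, 11.51 with oxymatrine and 11.60 in control. Both Gpr22 and Cog5 were highest with astragaloside IV. With oxymatrine they went different ways, Gpr22 by 0.15 from control and Cog5 by -0.09. Gpr52, known from the striatum of the brain, was at 9.47 with astragaloside IV and 9.23 in both other arrays. It lies inside Rabgap1l, whose own differences were 0.03 with astragaloside IV and -0.05 with oxymatrine. Gpr157 was at 10.85 with astragaloside IV and 10.90 in both other arrays, and Gpr141 at 8.42, 8.33 and 8.38. Gpr141b, its neighbour on chromosome 13, was below background with a mean level of 3.51. Gpr45 was at 5.65 and Gpr63 at 5.33 in each array. The orphans of this set thus split into genes equal in every array and genes with differences of up to 0.43.

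Several proteins with Gpr symbols work on internal membranes, and 8 of the 10 grouped here were above background. Gpr137b, a lysosomal protein linked to mTORC1, was at 12.17 in each array. The pseudogene Gpr137b-ps was at 13.12 with astragaloside IV and 13.14 in both other arrays; its probes may also bind RNA of Gpr137b, so both are uncertain as separate genes. The relatives Gpr137 (7.77, 7.77 and 7.84) and Gpr137c (6.94, 6.85 and 6.94) were within 0.1 over the arrays, given as astragaloside IV, oxymatrine and control. Gpr89, the Golgi pH regulator, was at 7.21 in each array. Gpr107, a Golgi protein, was at 10.03 with astragaloside IV and 9.99 in both other arrays, and its relative Gpr108 at 10.99, 10.99 and 10.89. Gpr180 was at 5.80 with astragaloside IV and 5.42 in both other arrays, a difference of 0.38 near background. The 2 dim genes were the lysosomal Gpr155 and the melanosomal Gpr143, with mean levels of 4.21 and 3.09.

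Adhesion receptors were mostly dim, but 1 of them had the largest difference from control of the whole gene group. Adgrg3, a receptor known from granulocytes (its product is also called GPR97), was at 5.34 with astragaloside IV, 5.55 with oxymatrine and 6.40 in control. The control array was the high one, and both treated arrays lay close to background. The difference from control was -1.06 with astragaloside IV, or 2.08-fold lower, and -0.85 with oxymatrine, or 1.81-fold lower. These are -3.91 and -2.88 times the SD among genes of that level (0.27 and 0.30). Measured against the 95th percentile of the Olfr and Vmn genes in the astragaloside IV array itself, which was 5.38, the value of 5.34 was not above background, so the fold rests on a treated value at the edge of detection. The neighbouring gene on chromosome 8, Adgrg1 (GPR56, known from NK cells and brain), was below background on average, at 4.87 with astragaloside IV, 5.38 with oxymatrine and 5.50 in control.

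The granulocyte markers Csf3r and S100a8 and the NK cell marker Il2rb were also lowest with astragaloside IV and highest in control. Ncr1, below background, had the same order, and Cd3d was highest in control with the treated arrays equal. The rest of those lists did not share this order. Of 5 neutrophil markers Csf3r alone was above background, at 10.11 with astragaloside IV, 10.49 with oxymatrine and 10.59 in control. S100a8 was below background on average, at 4.71, 4.84 and 5.52, and the other 3 were below it as well, with S100a9 and Mpo equal in the arrays and Elane at 3.92, 4.60 and 3.62. The summed level of the 5 neutrophil markers was 10.24 with astragaloside IV, 10.61 with oxymatrine and 10.71 in control, on a log2 scale, and is mostly that of Csf3r. Of 6 T and NK cell markers Il2rb alone was above background, at 6.32, 6.48 and 7.33 in the same order. Below it, Klrb1c was at 4.15, 4.79 and 4.15, Ncr1 at 3.63, 3.85 and 3.93, Cd3e at 4.56, 4.56 and 4.55, Cd3d at 3.84, 3.84 and 3.89 and Cd3g at 3.12, 3.12 and 3.06. The summed level of the 6 was 7.29, 7.48 and 7.91, and Il2rb is the gene that carries its order. The part of such cells in the Adgrg3 values was not tested.

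**Figure D3:**
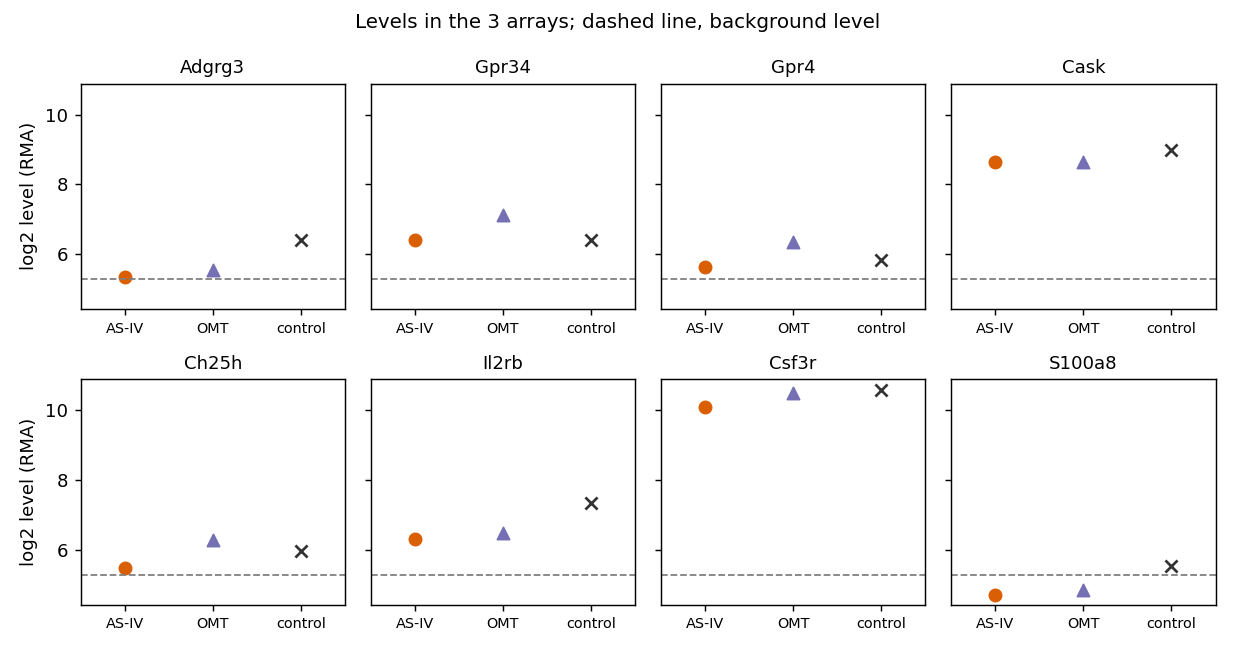
Log2 level of 8 genes in the astragaloside IV (AS-IV), oxymatrine (OMT) and control arrays, with the background level of 5.28 as a dashed line; levels are to be read within a gene. Adgrg3, Il2rb, Csf3r, S100a8 and Cask are highest in the control array, and Gpr34, Gpr4 and Ch25h are highest in the oxymatrine array. The neutrophil and NK cell markers shown share the order of Adgrg3. Not shown from their lists, Elane and Klrb1c are highest with oxymatrine, and S100a9 and Mpo are equal in the arrays.

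The other 5 adhesion receptors above background were within 0.42 of control in both treated arrays. Adgrg6, which acts in myelination by Schwann cells, was at 12.22 with astragaloside IV, 12.33 with oxymatrine and 12.20 in control. Adgre4, a receptor of myeloid cells, was at 6.34 with astragaloside IV and 5.93 in both other arrays, a difference of 0.42. Macrophage and monocyte markers beside it had a summed log2 level of 16.02 with astragaloside IV, 16.05 with oxymatrine and 16.03 in control, a sum that the brightest genes make up. Among them Fcgr1 was at 13.61, 13.47 and 13.47 and Mertk at 7.12, 6.94 and 7.39, so single markers went different ways. Adgrd1 was at 7.02 with astragaloside IV, 6.997 with oxymatrine and 6.64 in control. Adgrl4 and Adgra2, both known from blood vessel endothelium, were at 5.58, 5.58 and 5.37 and at 7.12, 6.91 and 6.91. None of the families B (3 genes), F (4 genes) and V (1 gene) had a member above background.

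Promoter sequences are shown for 4 genes that the results turn on: Adgrg3, with the largest difference from control, Gpr4, which differed most between the treated arrays among the 38 genes above background, and Gpr65 and Gpr183, bright on their own probe sets, with differences from control between -0.12 and -0.02. Sequences run 5′ to 3′ on the gene's strand, from 250 bases before to 50 bases after the start in RefSeq (GRCm38.p6). Capitals mark the core GAGGAA, on either strand, of the Ets site bound by PU.1 and Spi-B, factors of dendritic cell development.
Adgrg3 promoter, chr8:95017442-95017741, strand +: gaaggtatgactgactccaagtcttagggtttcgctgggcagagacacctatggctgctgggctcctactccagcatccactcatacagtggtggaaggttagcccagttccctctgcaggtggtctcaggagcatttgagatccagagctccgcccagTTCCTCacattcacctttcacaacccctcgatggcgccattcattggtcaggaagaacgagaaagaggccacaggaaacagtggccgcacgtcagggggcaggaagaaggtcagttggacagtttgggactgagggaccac
Gpr4 promoter, chr7:19212288-19212587, strand +: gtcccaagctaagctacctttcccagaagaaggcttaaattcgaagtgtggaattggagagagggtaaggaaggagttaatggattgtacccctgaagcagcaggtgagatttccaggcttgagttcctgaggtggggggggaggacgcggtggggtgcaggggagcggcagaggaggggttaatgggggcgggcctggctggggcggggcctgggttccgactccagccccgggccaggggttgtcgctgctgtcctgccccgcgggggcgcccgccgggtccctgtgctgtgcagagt
Gpr65 promoter, chr12:98268385-98268684, strand +: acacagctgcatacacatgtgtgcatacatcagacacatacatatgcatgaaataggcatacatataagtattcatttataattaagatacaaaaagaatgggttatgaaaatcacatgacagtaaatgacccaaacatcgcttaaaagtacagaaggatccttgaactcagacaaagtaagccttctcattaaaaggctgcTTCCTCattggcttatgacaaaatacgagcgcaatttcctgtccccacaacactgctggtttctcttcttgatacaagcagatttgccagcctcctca
Gpr183 promoter, chr14:121965144-121965443, strand -: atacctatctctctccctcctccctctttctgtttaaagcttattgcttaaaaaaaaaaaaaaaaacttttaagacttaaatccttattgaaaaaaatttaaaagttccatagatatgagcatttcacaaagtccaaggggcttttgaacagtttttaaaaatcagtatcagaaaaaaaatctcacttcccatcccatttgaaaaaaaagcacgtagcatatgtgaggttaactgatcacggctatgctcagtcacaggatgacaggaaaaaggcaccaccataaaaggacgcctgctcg
The core occurred once each in the Adgrg3 and Gpr65 windows and in neither of the others.

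Promoters of 71 of the 91 genes were in the table, 29 for genes above background (40 windows, since some genes have several starts) and 42 for genes below it (51 windows). GAGGAA was in 15 of the 40 windows (37.5%) of genes above background, in 12 of the 51 windows (23.5%) of genes below it and in 28.3% of all 32851 windows. The E-box CANNTG, which the lineage factor TCF4 binds, was in 75.0%, 76.5% and 72.3% in the same order. The letters were searched on both strands, a hit of one motif may overlap another, and a match is only a description of the sequence. Windows of the same gene were counted separately, the sets are small, and no share was tested against another. The gene for Spi-B, Spib, was at 8.03 with astragaloside IV, 7.55 with oxymatrine and 8.03 in control.

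In position, 9 of the 38 genes above background lie inside another protein-coding gene of that assembly. Gpr18 and Gpr183 are neighbours within Ubac2 on chromosome 14, and Ubac2 was at 9.88 in each array. Gpr171 lies inside Med12l, which was at 5.70 with astragaloside IV, 5.92 with oxymatrine and 5.70 in control. Probe sets that overlap such a host gene may take up some of its RNA, and this was not tested.

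Set against control, the astragaloside IV array had 12 of the 38 genes lower, 17 higher and 9 equal, with a median difference of 0. Among all 10671 such genes the shares were 40.8% lower, 31.4% higher and 27.7% equal, also with a median of 0. Centred on the array medians, 11 of the 38 were lower and 27 higher, and after lowess centring 14 were lower and 24 higher. After quantile normalisation 19 of 39 were lower and 20 higher. Genes equal as deposited gain a sign under any such scaling, and 1 of the 38 turned the sign it had under each. Adgrg3 was the only gene of the 38 at 2-fold or more, against 21 of 10671 genes (0.197%), and also the only one at 1.5-fold or more, against 2.13% of all genes. At counts this small the share among receptor genes cannot be set apart from the background share.

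**Figure D4:**
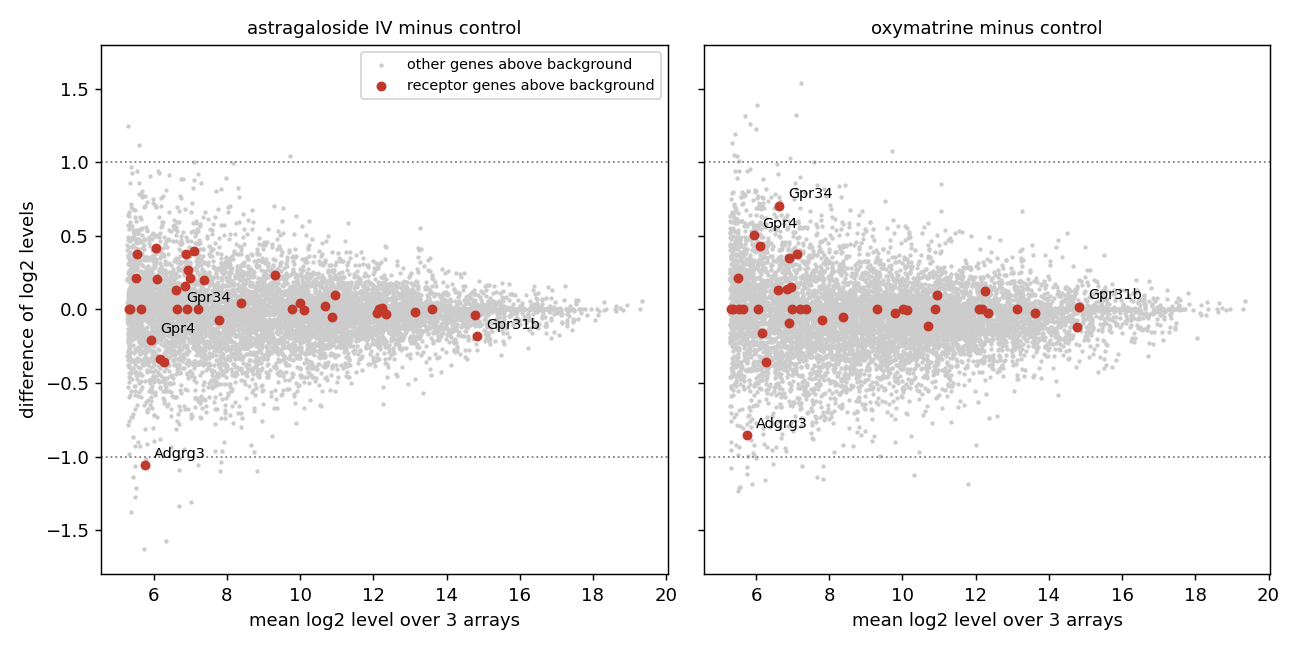
Difference of log2 levels (vertical axis) against the mean log2 level over the 3 arrays, for astragaloside IV minus control (left) and oxymatrine minus control (right); red points are the 38 receptor genes, grey points the other genes above background, and dotted lines mark 2-fold. Receptor genes with a mean level of 9 or more lie within 0.24 of 0 in both panels, and Adgrg3 is the point at -1.06 on the left and -0.85 on the right.

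The oxymatrine array had 12 of the 38 genes lower than control, 12 higher and 14 equal, with a median difference of 0. The shares over all such genes were 46.0% lower, 29.7% higher and 24.4% equal. The balance among the 38 moved with the scaling. It was 27 lower and 11 higher after centring on the medians, and 13 lower and 25 higher after lowess centring. After quantile normalisation 17 of 39 were lower and 22 higher. Genes equal as deposited gained a sign under each scaling. Of the 38, 1 turned the sign it had under centring on the medians, 4 under quantile normalisation and 4 under lowess centring. No receptor gene above background reached 2-fold, against 30 of 10671 genes (0.281%). At 1.5-fold, Gpr34 was higher and Adgrg3 lower, 2 of 38 genes, against 3.31% of all genes. Gpr4 followed with 0.51 and Gpr27 with 0.43.

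Between the treated arrays, astragaloside IV was lower than oxymatrine in 11 of the 38 genes, higher in 17 and equal in 10. Over all genes these shares were 32.5%, 40.7% and 26.7%. Centring on the medians gave 8 lower and 30 higher, and quantile normalisation 20 lower and 19 higher of 39. Lowess centring gave 17 lower and 21 higher. Genes equal as deposited again gained a sign, and 3, 5 and 1 of the 38 turned theirs in the same order. No receptor gene above background was 2-fold apart, against 0.159% of all genes. Gpr4, with -0.72, and Gpr34, with -0.71, passed 1.5-fold, 2 of 38 against 2.58% of all genes. On the other side the largest values were those of Adgre4, with 0.42, and Gpr180, with 0.38.

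**Figure D5:**
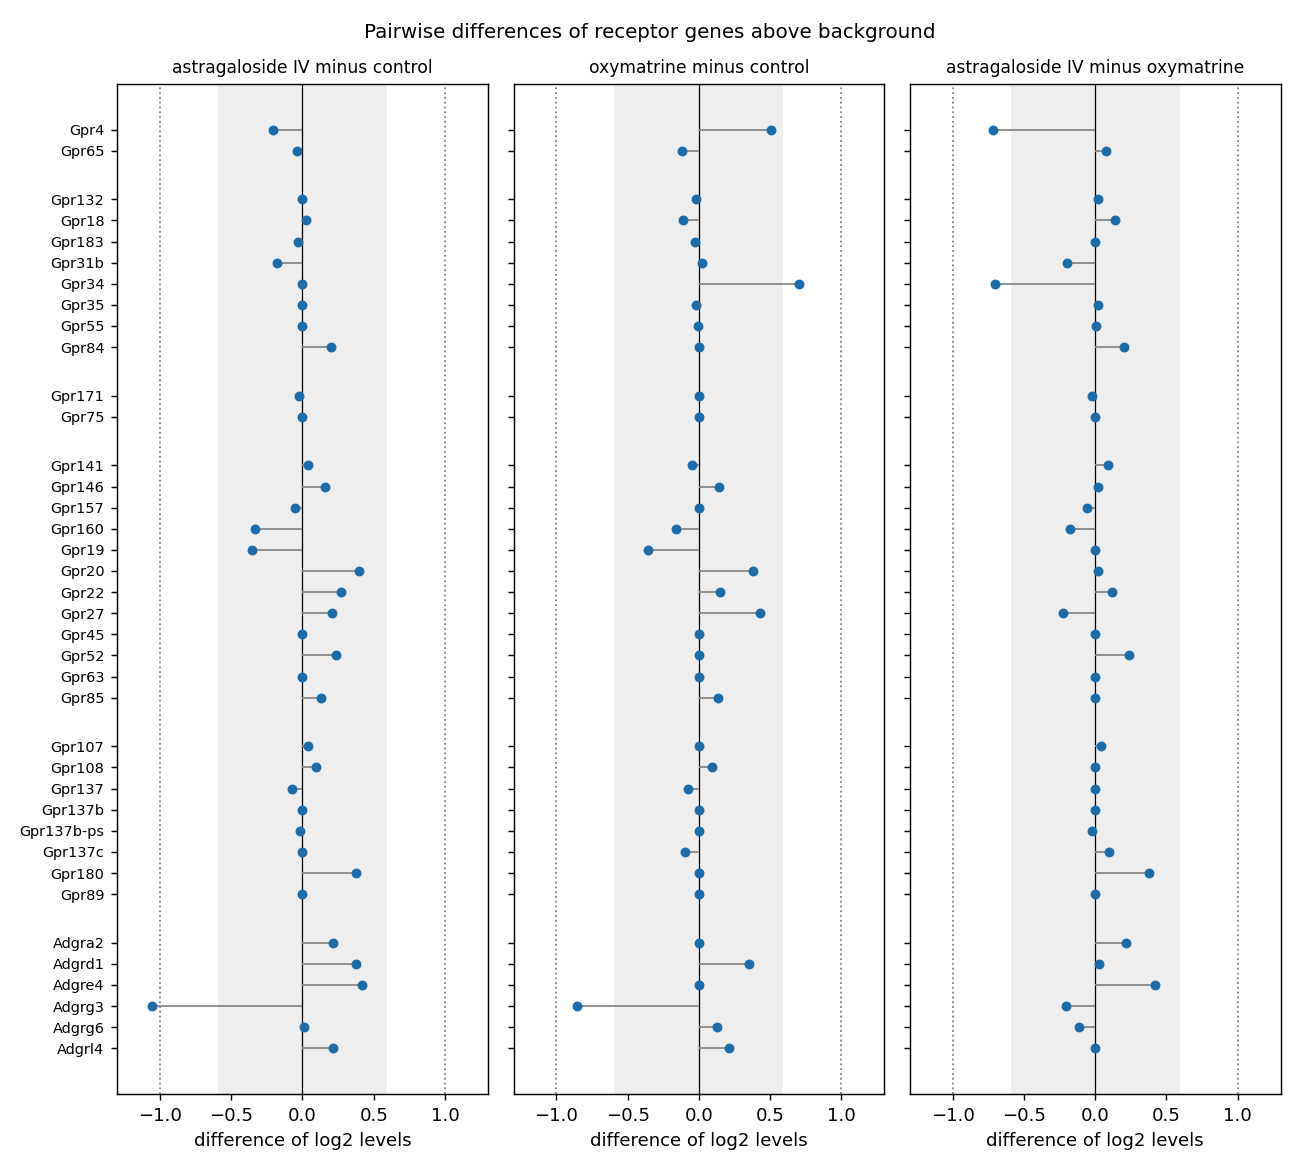
Differences of log2 levels (horizontal axis) for the 38 receptor genes in 3 pairs of arrays; the shaded band spans differences under 1.5-fold and dotted lines mark 2-fold. Adgrg3 lies left of the band in both comparisons with control, Gpr34 right of it for oxymatrine minus control, and Gpr4 and Gpr34 left of it for astragaloside IV minus oxymatrine.

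Size of difference went with level. The 15 receptor genes with a mean level of 9 or more had median absolute differences from control of 0.03 with astragaloside IV and 0.02 with oxymatrine, and none reached 1.5-fold. Over the 5626 genes of that level these medians were 0.05 and 0.07. The 23 receptor genes above background but under 9 had medians of 0.21 and 0.13, and the 5045 genes under 9 had 0.09 and 0.10. These sets were not matched for level within that range. Of the 23, all but Gpr137 and Gpr141 had a mean level of 7.36 or less. With astragaloside IV the SD among genes of similar level was 0.29 at Gpr63 and 0.21 at Gpr141. The 53 receptor genes below background differed from control by -0.65 to 0.94 with astragaloside IV and by -0.46 to 0.79 with oxymatrine, without a 2-fold difference. Among them Gpr165 was at 4.59 with astragaloside IV, 4.44 with oxymatrine and 3.65 in control, and is named because its values stood out once seen. Gpr26, Gpr179 and Gpr161, just under the threshold, had mean levels of 5.08, 5.19 and 5.28. Their lowest and highest differences from control were -0.12, for Gpr161 with oxymatrine, and 0.31, for Gpr26 with astragaloside IV.

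Genes that act next to these receptors were read from lists chosen by function. Their counts stand against all genes above background, of which 40.8% were lower and 31.4% higher than control with astragaloside IV, and 46.0% lower and 29.7% higher with oxymatrine, and no list was tested for a difference from these shares. Of 17 enzymes that make or remove receptor ligands 11 were above background, of which 2 were higher and 5 lower than control with astragaloside IV, and 4 were higher and 4 lower with oxymatrine. Ch25h, the cholesterol hydroxylase that starts the synthesis of the Gpr183 ligand, was at 5.48 with astragaloside IV, 6.28 with oxymatrine and 5.96 in control. The difference of astragaloside IV minus oxymatrine was -0.80, with the astragaloside IV value near background. Hsd3b7, which removes that ligand, was at 8.75, 8.62 and 8.77, Ido1, at the head of the kynurenine pathway, at 10.36, 10.18 and 10.48, and Dagla at 5.18, 5.82 and 5.63. None of the 11 was 2-fold from control.

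The list of arrestins and receptor kinases also holds the arrestin-domain genes Arrdc1 to Arrdc4 and Txnip. It had 10 of 11 genes above background. Of these, 6 were higher and 2 lower than control with astragaloside IV, and 4 were higher and 3 lower with oxymatrine. Arrdc2, an arrestin-domain gene, was at 6.22 with astragaloside IV, 6.23 with oxymatrine and 6.94 in control, with differences of -0.72 and -0.71. Arrb1, which encodes a beta-arrestin, was at 12.22, 12.04 and 11.95, Grk3 at 14.41, 14.56 and 14.40 and Arrdc3 at 9.03, 8.66 and 8.98. Of 16 G protein alpha subunit genes 10 were above background, with 4 lower and 3 higher with astragaloside IV and 2 lower and 4 higher with oxymatrine. Gna11 was at 8.19 with astragaloside IV, 8.53 with oxymatrine and 8.10 in control, and Gnai1 at 6.08, 6.48 and 6.48. Gnas, the stimulatory subunit, was at 14.38, 14.38 and 14.45, and Gnao1 at 5.97, 6.12 and 5.97.

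Regulators of G protein signalling shorten the active state of the alpha subunit, and 10 of 24 were above background, 4 lower and 3 higher with astragaloside IV and 5 lower and 4 higher with oxymatrine. Rgs12 was at 7.33 with astragaloside IV, 6.94 with oxymatrine and 7.46 in control, and Gpsm3 at 7.23, 7.61 and 7.73. Rgs18 was at 7.42, 7.79 and 7.42, and Rgs10 at 10.46, 10.72 and 10.46. Of 24 genes of the cyclic AMP response 16 were above background, 6 lower and 5 higher with astragaloside IV and 9 lower and 3 higher with oxymatrine. The largest differences from control there were those of Prkar2b, at 10.35, 10.57 and 10.67, Nr4a1, at 8.70, 9.08 and 8.93, Prkar1a, at 13.63, 13.49 and 13.67, and Pde3b, at 12.38, 12.16 and 12.21.

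Ligands of adhesion receptors had 7 of 16 genes above background, 3 lower and 1 higher with astragaloside IV and 3 lower and 2 higher with oxymatrine. Cd55, a complement regulator that binds the adhesion receptor CD97, was at 5.97 with astragaloside IV, 5.71 with oxymatrine and 6.21 in control. Tgm2 was at 7.49, 7.55 and 7.65, and the tetraspanin genes Cd81 and Cd9 at 16.38, 16.48 and 16.34 and at 12.51, 12.63 and 12.51. Of the adhesion receptors with Celsr symbols 1 of 3 was above background, Celsr3 at 8.03 in each array. The median difference from control was between -0.03 and 0.01 for each of these 7 lists with either compound, and 0 over all genes.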

How the data were processed

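The authors deposited log2 expression values made with RMA from whole-transcript arrays, per the submitters' processing notes; for the software, nothing more is given in the sources used here. That the scale is log2 was inferred from the range of the values. Gene symbols came from the 2019 annotation of the platform, and all 91 matched RefSeq by Entrez identifier. Where a gene had several probe sets, the brightest on average was kept. Above background means a mean at or above the 95th percentile of 1412 Olfr and Vmn genes. Differences are between 2 deposited values, beside their SD among genes of similar level in 20 bins. With 1 array per group no test was run, and arrays have no read depth: their number limits the precision. Every gene above background was to be named, with those at the 90th percentile or more and up to 4 genes of each list. The genes, lists and comparisons were chosen with earlier results of these data known, and the level of 9 and the promoters shown after the values were seen. Protein sequences were not used here. The differences were tested on simulated data, with a spread capped below that of genes as dim as Adgrg3. Quantile normalisation was tested on a small made-up example, and the other calculations were not tested in this way. Python 3.11.15, numpy 2.4.6, pandas 2.3.3, statsmodels 0.14.6 and matplotlib 3.10.9 were used.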

Additional observations from a re-analysis of the deposited data

How the results depend on the processing

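Alternative counts were made for the receptor genes above background and for those at 2-fold in each pair of arrays. Of these 33 counts, 29 were within 1.5 times the count reported. Some could not move: a count of 0 at 2-fold stays 0 at 3-fold, and each receptor gene has 1 probe set to average over. The counts reported at 2-fold were 1, 0 and 0, so this tally says little about stability. The number above background was 42 with the 90th and 32 with the 99th percentile, 35 when each array's own percentile had to be passed in all 3 arrays, 38 in at least 1, and 39 after quantile normalisation. The median differences, 0 as reported, lay between -0.03 and 0.03 under 21 alternatives. There were 4 exceptions among the counts. For astragaloside IV against control, 1 gene at 2-fold became 0 with the 99th percentile, which leaves out Adgrg3, and 0 at 3-fold. At 1.5-fold the count was 2 in place of 0 for oxymatrine against control and likewise 2 in place of 0 between the treated arrays. Under the 3 scalings, 21 of 342 single differences turned their sign, the largest of them 0.03 as deposited. Differences of exactly 0 as deposited had no sign to turn and are among the 342. The differences of Adgrg3 were -1.05 to -1.10 and -0.86 to -0.91. No paired analysis was possible because each group has 1 array. Background correction, slide and scan date could not be varied from the values used here. Dim genes limit what can be read, Adgrg3 among them.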
